A study of Mus musculus with 18 samples.

Results

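The alpha-2,8-sialyltransferases St8sia1 to St8sia6 and Ncam1, the main carrier of the polymer that some of them make, were followed through 18 mouse hippocampus samples. The members were all probe sets that the platform annotation gives to these 7 genes alone, 20 of the 45101 probe sets on the array. St8sia6 was selected on these measurements, because 1 of its probe sets had among the lowest p-values for aged impaired against aged unimpaired samples, so that comparison is described here without a test for any member. There were 6 young samples, labelled as having unimpaired spatial memory, 6 aged samples with unimpaired and 6 with impaired spatial memory. All groups were hippocampus, profiled on 1 Affymetrix array a sample. Strain, age in weeks or months and sex are not given in the labels, nor do they say that each sample was a separate animal, so p-values measure the spread between samples, which may be partly technical.

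Sialyltransferases of this family add a sialic acid to another sialic acid. St8sia2 and St8sia4 are polysialyltransferases: they build long chains of polysialic acid on Ncam1, a neural cell adhesion molecule. The bulky, charged chains weaken adhesion between cells and mark newborn neurons and growing axons of the dentate gyrus. St8sia1 and St8sia5 act mainly on gangliosides, the sialic acid lipids of nerve cell membranes, St8sia1 being the synthase of the ganglioside GD3. St8sia3 acts on glycoproteins as well as gangliosides. St8sia6 adds short sialic acid caps, mostly to sugar chains on glycoproteins.

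RefSeq start-site windows of assembly GRCm38.p6 matched 4 of the 7 genes: St8sia1, St8sia2, St8sia4 and St8sia6. The 250 bases before the start site are shown for St8sia6, the member that rose with age, and for St8sia2, whose means were lower in aged samples. Both genes lie on the minus strand, at chr2:13793521-13793770 for St8sia6 and chr7:74013683-74013932 for St8sia2, and both windows are printed 5′ to 3′. Capitals mark the GC box GGGCGG on either strand.
St8sia6: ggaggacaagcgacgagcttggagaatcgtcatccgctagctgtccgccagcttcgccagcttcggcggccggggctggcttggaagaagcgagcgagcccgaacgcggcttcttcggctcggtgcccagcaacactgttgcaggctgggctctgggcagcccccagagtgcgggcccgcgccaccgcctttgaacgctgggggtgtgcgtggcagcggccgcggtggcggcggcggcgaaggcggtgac
St8sia2: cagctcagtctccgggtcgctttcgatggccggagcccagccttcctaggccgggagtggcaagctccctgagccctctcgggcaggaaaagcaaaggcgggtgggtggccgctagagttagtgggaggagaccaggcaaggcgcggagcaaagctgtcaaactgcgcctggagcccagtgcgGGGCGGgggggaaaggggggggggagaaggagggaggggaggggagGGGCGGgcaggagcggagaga
St8sia2 held 2 GC boxes, St8sia1 and St8sia4 held 1 each and St8sia6 held 0. Among 32851 windows of this length, 32.7% held at least 1. The E-box CACGTG (6.02% of windows), the D-box TTATGTAA (0.819%) and the TATA box TATAAA (12.4%), searched on both strands, had 0 matches in these 4 windows, and no match overlapped another. The base composition was rich in G and C, at 70.8% for St8sia6 and 68.8% for St8sia2, against a median of 52.4% over the windows. These letters are a description of the windows, and binding of a factor was not measured.

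Values are probe set signals on a log2 scale after an offset of 16 was added, so a difference of 1 is a doubling of signal plus offset, and the change of dim probe sets is understated. A probe set was called when its adjusted p from limma, fitted to all probe sets tested, was under 0.05. Each probe set has its own sensitivity, so levels are compared between samples on 1 probe set and not between probe sets. Of the 20 member probe sets, 16 passed the filter on dim signal. The 4 left out were 1419694_at and 1419695_at of St8sia1 and 1421966_at and 1425126_at of Ncam1. As a low reference, Xist, which silences the inactive X, ran from 5.22 to 6.80, while the Y-linked transcript Eif2s3y ran from 8.91 to 9.89. All 8 marker genes of hippocampal subfields passed the filter, the dimmest being Amigo2 with a mean of 7.75. The deposited arrays share a trimmed mean of 150, so their level cannot show whether they were alike in depth. The median deposited signal ran from 23.5 to 30.5. Each array had a correlation of 0.976 to 0.983 with the array most like it. Choroid plexus markers varied widely within each group, their mean running from 7.66 to 10.71 in young, 7.09 to 10.87 in aged unimpaired and 7.58 to 10.96 in aged impaired samples.

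St8sia6 was the only member called when both aged groups were set against young, a comparison that is orthogonal to the difference between the aged groups but shares its estimate of spread. On 1456147_at, its probe set of highest mean, young samples ran from 7.47 through a median of 7.64 to 7.78. Aged unimpaired samples ran from 7.79 through 7.95 to 8.20. Aged impaired samples ran from 8.31 through 8.39 to 8.53. The 3 groups did not overlap and stood in the order young, aged unimpaired, aged impaired. The highest young and the lowest aged unimpaired sample were next to each other, at deposited signals of 61.3 and 61.5, while 83.5 and 90.3 bordered the aged groups.

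St8sia6 rose with age by 0.55 ± 0.07 (standard error) on 1456147_at, 1.46-fold, with all 12 aged samples above all 6 young ones (limma adjusted p = 4.64e-04). Over all 27022 probe sets tested, 256 or 0.947% were called in this comparison, and 57 or 0.211% were higher in aged than in young samples without overlap. The adjusted p stayed between 1.17e-04 and 0.00792 over 27 alternative fits, including those that left out 1 sample. Against young, the difference was 0.34 ± 0.08 in aged unimpaired and 0.76 ± 0.08 in aged impaired samples, where 0.44% and 1.12% of probe sets were higher without overlap. Between the aged groups it was 0.42 ± 0.08, the value for which the gene was picked, and 0.259% were higher without overlap.

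The other St8sia6 probe sets were also higher in aged samples, without passing the test. On 1438566_at young samples ran from 6.68 through 7.09 to 7.25, aged unimpaired from 7.19 through 7.40 to 7.75, and aged impaired from 6.98 through 7.40 to 7.90. The aged mean was 0.41 ± 0.14 above young (adjusted p = 0.180), with 8 of 12 aged samples above every young one. On 1456440_s_at, whose suffix marks probes shared with other transcripts, young samples ran from 6.69 to 7.33, aged unimpaired from 6.66 to 7.89 and aged impaired from 6.94 to 7.68. Its aged mean was 0.35 ± 0.17 above young (adjusted p = 0.390), and 11 of 12 aged samples lay above the young mean.

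The St8sia6 probe sets differed in the aged groups. Where 1456147_at was 0.42 ± 0.08 higher in impaired samples, 1438566_at differed by -0.07 ± 0.16 and 1456440_s_at by 0.00 ± 0.20, and both overlapped widely between the aged groups. Over the 18 samples 1456147_at correlated with 1438566_at at r = 0.429 and with 1456440_s_at at r = 0.461. After the group means were taken out, these values were 0.016 and 0.367. The annotation ties 1438566_at and 1456440_s_at to a different source transcript from 1456147_at, and which part of the St8sia6 RNA each reads was not analysed here. The lowest samples of both dimmer probe sets, at 6.68 and 6.66, lay within the range of Xist, whereas all samples lay above that range on 1456147_at.

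**Figure D1:**
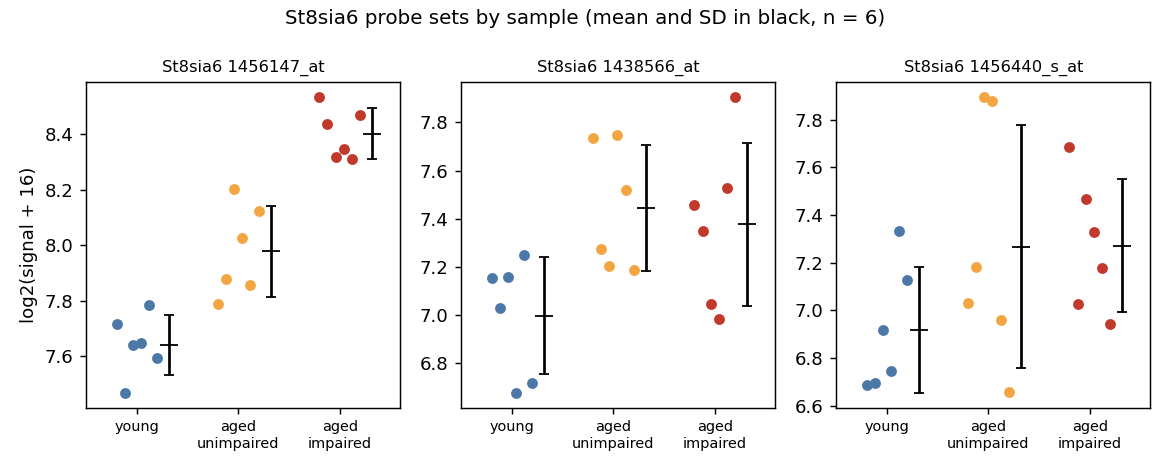
Log2(signal + 16) of the 3 St8sia6 probe sets (y axis) in young, aged unimpaired and aged impaired samples (x axis), 1 point a sample, with the mean and SD of 6 samples in black. On 1456147_at the groups do not overlap, from 7.47 to 7.78 in young up to 8.31 to 8.53 in aged impaired samples, while on the other probe sets the aged groups overlap.

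Markers of microglia, the resident immune cells of the brain, moved with St8sia6 on 1456147_at, and less or not with its other probe sets. The mean of 9 microglia markers ran from 9.43 to 9.76 in young, 9.94 to 10.39 in aged unimpaired and 10.01 to 10.41 in aged impaired samples. Of the 9, 4 rose and 0 fell when both aged groups were set against young, where 1.19% of all genes were called. There, 8 of the 9 had a higher and 1 a lower mean. The median difference over the list was 0.43, and the dimmest, Itgam, had a mean of 7.39. Oligodendrocyte markers ran from 12.04 to 12.56, 12.09 to 12.61 and 12.54 to 12.85 in the same order of groups. Of these, 0 of 6 were called for both aged groups against young, with 4 higher and 2 lower means. In aged impaired samples against young 2 of 6 rose, with a median difference of 0.44, where 1.9% of all genes were called. Astrocyte markers ran from 11.89 to 12.17, 12.02 to 12.17 and 11.97 to 12.29, with 1 of 5 called higher in each of these comparisons. In each, 3 of the 5 had a higher and 2 a lower mean. Over the 18 samples 1456147_at had r = 0.835 with the microglia, 0.729 with the oligodendrocyte and 0.672 with the astrocyte mean. With group means taken out these values were 0.584, 0.402 and 0.242. The microglia mean had r = 0.530 with 1438566_at and 0.174 with 1456440_s_at, and 0.093 and -0.420 with group means taken out. In bulk tissue, more cells of a type and more RNA per cell cannot be told apart, and the part of these 3 lists in the St8sia6 result was not tested. With the choroid plexus mean as a covariate the St8sia6 difference was 0.55.

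The gene most like St8sia6 across the 18 samples was Dbp, a transcription factor of the clock output, with r = 0.897 and rho = 0.882 on the log2 scale among 13120 other genes. Pmp22, a protein of peripheral myelin, followed at r = 0.890, then Haus1, a subunit of the spindle complex augmin, at 0.883, the complement gene C1qb at 0.882 and Ankrd13a at 0.880. These values mostly describe the differences between groups. With group means taken out, r was 0.228 for Dbp, 0.211 for Pmp22, 0.544 for Haus1, 0.498 for C1qb and 0.682 for Ankrd13a, and 0 of these 5 were still among the top 5. Within the groups of 6, r with Dbp was 0.716 in young, 0.029 in aged unimpaired and 0.368 in aged impaired samples. Within groups, r with the microglia mean was 0.681, 0.519 and 0.685. All samples share tissue, array type and scaling, and no p is given because the genes were sought for likeness.

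**Figure D2:**
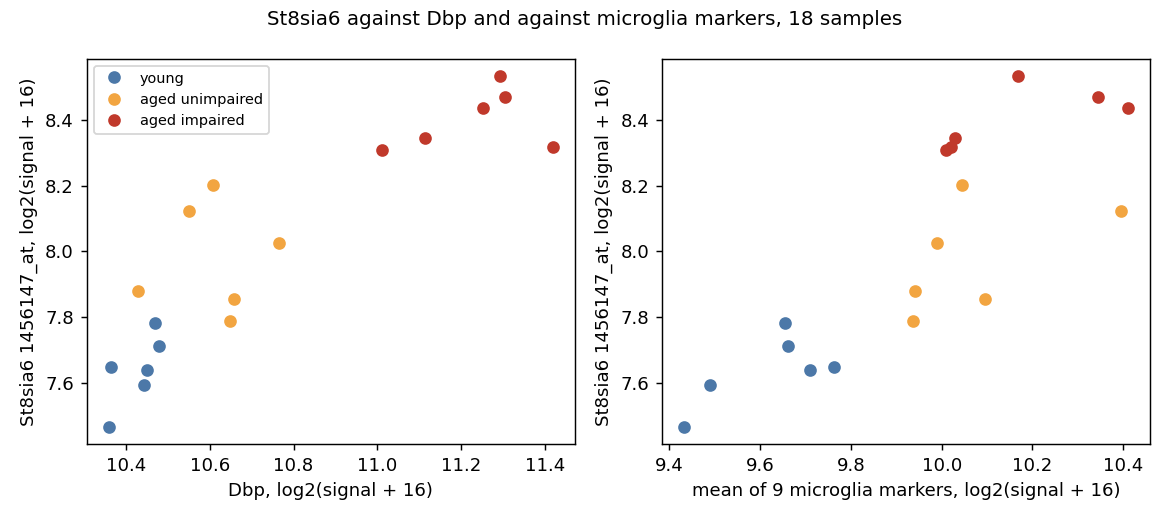
St8sia6 on 1456147_at (y axis) against Dbp (left) and the mean of 9 microglia markers (right), all as log2(signal + 16), 1 point for each of 18 samples, coloured by group. The aged impaired samples stand at the upper right for Dbp, apart from the aged unimpaired ones, while the aged groups overlap along the microglia axis.

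St8sia3 was lower in aged impaired samples on 1451008_at, the dimmer of its probe sets. St8sia3 makes short sialic acid chains on gangliosides and glycoproteins of neurons. On 1451008_at young samples ran from 9.76 through 9.97 to 10.16, aged unimpaired from 9.74 through 9.83 to 10.05, and aged impaired from 9.50 through 9.60 to 9.74. All 6 impaired samples lay below every young and every aged unimpaired sample, though at the borders the gaps were narrow: the highest impaired signal as deposited was 251.7, beside 252.4 for the lowest aged unimpaired and 255.3 for the lowest young sample. Against young, St8sia3 fell by 0.35 ± 0.07 in aged impaired samples (limma adjusted p = 0.0197). This was the only call among 13 probe sets of the members other than St8sia6, beside 440 or 1.63% of all probe sets tested (0.6% lower), and 239 or 0.884% were lower without overlap between these groups.

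The St8sia3 call was lost in 3 of 28 alternative fits, with adjusted p of 0.0587 without a filter, 0.0726 with a block for sample number and 0.0550 when the fit held those groups alone. Aged unimpaired samples differed from young by -0.11 ± 0.07 (adjusted p = 0.733), and aged impaired from aged unimpaired by -0.24 ± 0.07, given without a test, where 0.266% of probe sets were lower without overlap. Both aged groups together differed from young by -0.23 ± 0.06 (adjusted p = 0.0969). The brighter probe set, 1440029_at, had a mean of 10.46 over all samples, against 9.81 for 1451008_at. It had a difference of the same sign, -0.14 ± 0.09 for aged impaired against young (limma adjusted p = 0.499). There the groups overlapped, with 10.32 to 10.73 in young, 10.32 to 10.60 in aged unimpaired and 10.11 to 10.62 in aged impaired samples. The St8sia3 probe sets correlated at r = 0.274 over the 18 samples and at -0.034 with group means taken out.

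On 1451008_at and 1456147_at, St8sia3 and St8sia6 moved in opposite order over the groups. This order includes the difference between the aged groups for which St8sia6 was picked. Between 1451008_at and 1456147_at r was -0.714 over the 18 samples and 0.275 with group means taken out, so the sign turned within groups. The other pairs of St8sia3 and St8sia6 probe sets had r from -0.423 to 0.143 over the 18 samples. On 1440029_at, St8sia3 was lower where marker levels of glia were higher, with r = -0.675 with the microglia mean and -0.762 with the mean of 5 astrocyte markers, and -0.750 and -0.747 with group means taken out. On 1451008_at the values were -0.572 and -0.657, and 0.068 and -0.287 with group means taken out. In aged impaired samples against young, 1 of 5 astrocyte and 5 of 9 microglia markers rose, where 1.9% of all genes were called. Of the astrocyte markers 3 had a higher and 2 a lower mean there, and of the microglia markers 8 and 1. The part of glial RNA in the St8sia3 result was not tested.

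St8sia1 had a higher mean in aged samples and did not pass the test. It makes GD3, a ganglioside of neural stem cells and reactive glia. On 1455695_at, its bright probe set, young samples ran from 10.19 through 10.38 to 10.52, aged unimpaired from 10.39 through 10.49 to 10.70 and aged impaired from 10.31 through 10.60 to 10.75. Both aged groups lay 0.19 ± 0.07 above young (adjusted p = 0.255), with 11 of 12 aged samples above the young mean. Of the aged impaired samples 5 of 6 lay above every young one, and replicate 2 was low at 10.31. The dim probe sets that the filter left out ran from 4.70 to 6.39 and from 4.97 to 6.49 and gave differences of 0.39 ± 0.19 and 0.22 ± 0.20 without a filter (adjusted p = 0.490 and 0.762).

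St8sia5, which adds the last sialic acid of complex gangliosides, had 1 probe set, 1421735_a_at. Young samples ran from 9.76 through 10.14 to 10.37, aged unimpaired from 9.88 through 10.04 to 10.29, and aged impaired from 9.82 through 9.94 to 10.33. The groups overlapped over nearly their whole range, and both aged groups differed from young by -0.08 ± 0.09 (adjusted p = 0.764).

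Of the polysialyltransferases, St8sia2 had lower means in aged samples on both its probe sets, neither of which passed. This enzyme is abundant in the developing brain and is kept in newborn neurons of the adult dentate gyrus. On 1420377_at young samples ran from 6.47 through 6.87 to 7.42, aged unimpaired from 6.40 through 6.68 to 6.96 and aged impaired from 6.39 through 6.63 to 7.04. The aged mean was 0.25 ± 0.12 lower (adjusted p = 0.387). On 1449843_at young samples ran from 5.55 through 7.01 to 7.41, aged unimpaired from 5.30 through 6.26 to 6.49 and aged impaired from 6.05 through 6.54 to 6.86. The aged mean was 0.47 ± 0.23 lower (adjusted p = 0.385), and 5 young samples, at 6.59 to 7.41, lay above all aged unimpaired ones.

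These St8sia2 signals were dim. Young replicate 2 was the lowest young sample on 1449843_at (5.55) but lay at 6.87 on 1420377_at, and young replicate 5 was the lowest on 1420377_at (6.47) but lay at 7.19 on 1449843_at. The probe sets correlated at r = -0.031 over the 18 samples, and both held samples within the range of Xist. Along the mean of 3 oligodendrocyte precursor markers, 1420377_at had r = 0.754, and 0.678 with group means taken out. The other probe set, 1449843_at, did not share this, with r = 0.057, and -0.274 with group means taken out.

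St8sia4, the main polysialyltransferase of the adult brain, was flat on its bright probe set. On 1419186_a_at young samples ran from 9.56 through 9.88 to 9.97, aged unimpaired from 9.70 through 9.87 to 10.14 and aged impaired from 9.69 through 9.88 to 10.07. The groups overlapped, and both aged groups differed from young by 0.04 ± 0.08 (adjusted p = 0.864). The dim probe set 1430391_a_at ran from 5.88 to 6.59 in young, 5.91 to 6.68 in aged unimpaired and 4.52 to 6.29 in aged impaired samples. Its aged impaired mean was 0.48 ± 0.25 below young (adjusted p = 0.364), with replicate 6 far below the rest at 4.52. The St8sia4 probe sets correlated at r = -0.011.

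**Figure D3:**
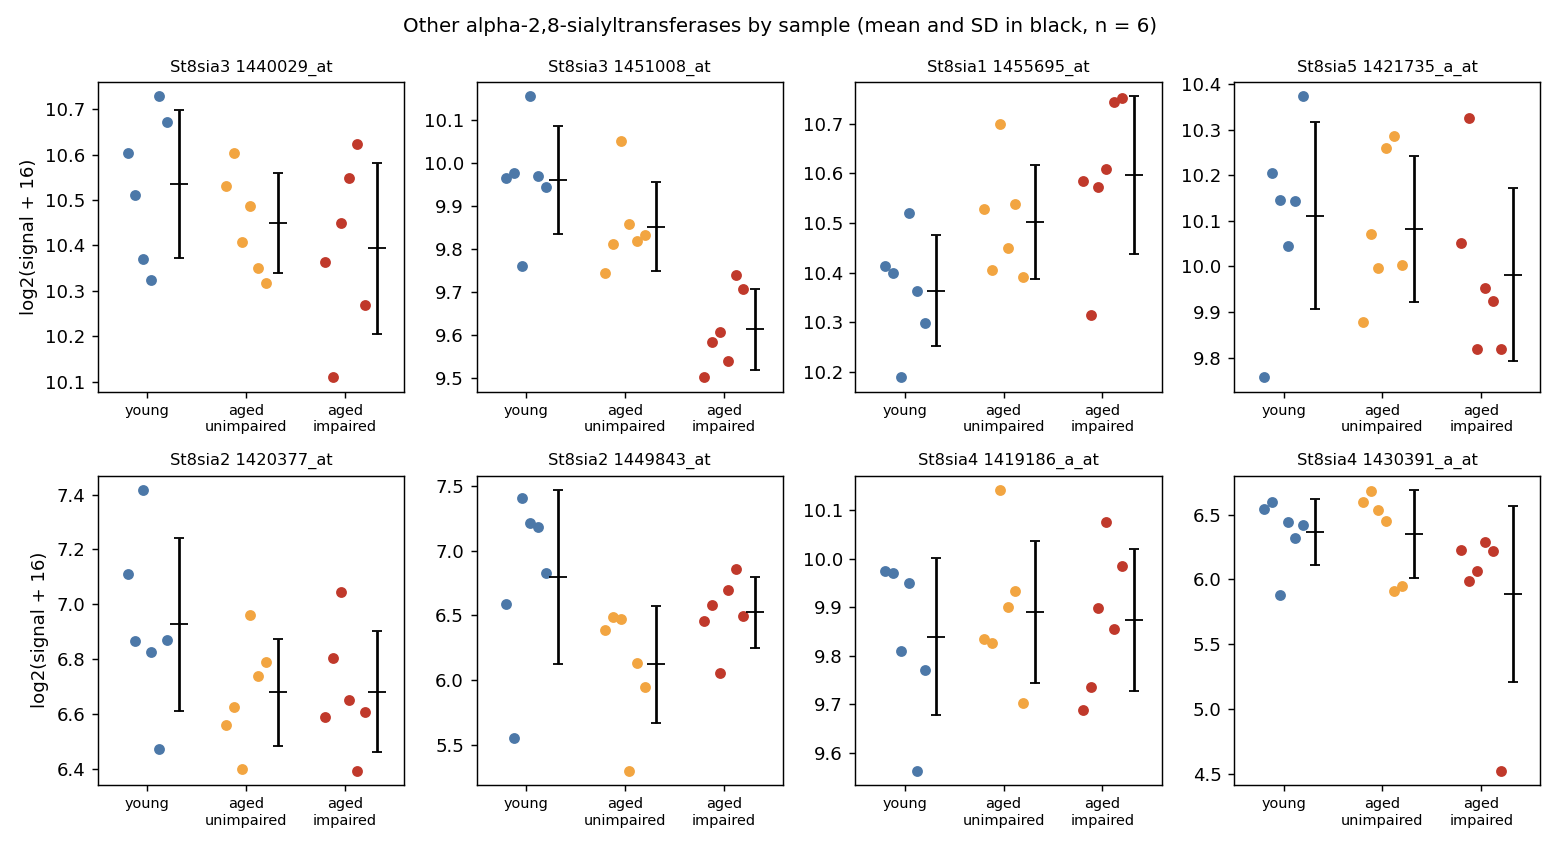
Log2(signal + 16) of the tested probe sets of St8sia1 to St8sia5 (y axis) in the 3 groups (x axis), 1 point a sample, with the mean and SD of 6 samples in black. On St8sia3 1451008_at the 6 aged impaired samples, 9.50 to 9.74, lie below all others, and the other panels show overlapping groups.

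Ncam1, the carrier of polysialic acid, was bright on 3 probe sets, and none of its tested probe sets passed in any comparison tested. On 1426864_a_at young samples ran from 11.22 through 11.28 to 11.56, aged unimpaired from 11.34 through 11.46 to 11.58 and aged impaired from 11.04 through 11.56 to 11.61. Both aged groups differed from young by 0.09 ± 0.09 (adjusted p = 0.718). Young replicates 1 and 2 were high there (11.53 and 11.56) and aged impaired replicates 1 and 2 low (11.04 and 11.20), against the direction of their groups.

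On 1426865_a_at the difference was 0.07 ± 0.10 (adjusted p = 0.823), with young samples from 10.53 to 11.25, aged unimpaired from 10.50 to 10.94 and aged impaired from 10.60 to 11.14. On 1450437_a_at it was 0.10 ± 0.07 (adjusted p = 0.605), with 9.78 to 10.13, 9.89 to 10.23 and 9.94 to 10.36 in the same order of groups. Among all pairs of Ncam1 probe sets these were the most alike, with r = 0.735 over the 18 samples. Their suffix marks probes that read several transcripts of 1 gene, and the long and short forms of Ncam1 could not be told apart here.

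On the dim probe set 1439556_at aged impaired samples ran from 6.45 through 6.94 to 7.55, above 6.03 through 6.47 to 6.85 in young and 6.15 through 6.47 to 6.91 in aged unimpaired samples. Aged impaired differed from young by 0.47 ± 0.18 (adjusted p = 0.205) and from aged unimpaired by 0.42 ± 0.18, and the groups overlapped. The dim 1450438_at spread widely in each group, from 4.62 to 7.30 over all samples, with a difference of -0.08 ± 0.39 (adjusted p = 0.958). The probe sets 1421966_at and 1425126_at, left out by the filter, ran from 4.09 to 5.13 and from 4.12 to 6.74. Without a filter they differed by 0.05 ± 0.13 and 0.50 ± 0.34 between aged and young (adjusted p = 0.932 and 0.654).

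**Figure D4:**
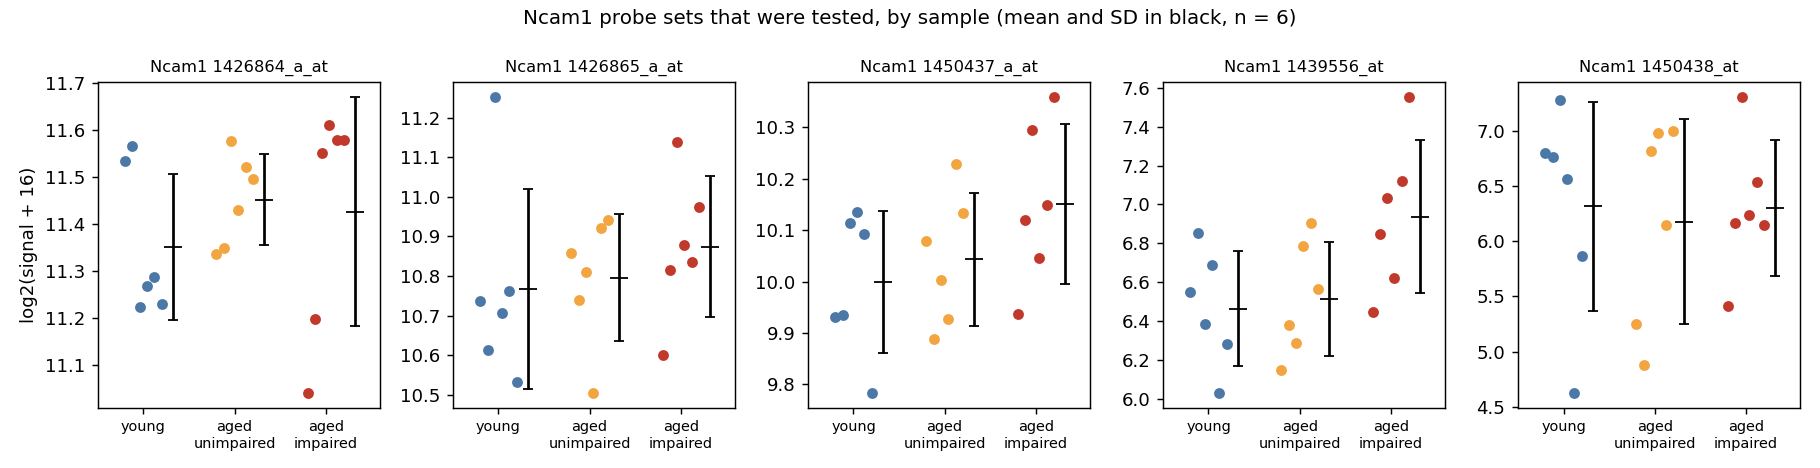
Log2(signal + 16) of the 5 tested Ncam1 probe sets (y axis) in the 3 groups (x axis), 1 point a sample, with the mean and SD of 6 samples in black. The groups overlap on every one, and 1439556_at has its highest samples, up to 7.55, in the aged impaired group.

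Counted together, 1 of the 16 tested member probe sets rose and 0 fell when both aged groups were set against young, beside 0.614% and 0.333% of all probe sets tested. Their median difference was 0.05, against -0.01 over all tested, and 4 had an unadjusted p under 0.05, where 13.4% of all probe sets did. Aged unimpaired against young, which shares the young samples with the comparisons above, gave 0 calls among the 13 probe sets of members other than St8sia6 in limma, with 1 at an unadjusted p under 0.05, beside 0.137% called and 8.19% at that unadjusted p over all. Aged impaired against young gave 3 at an unadjusted p under 0.05, where 15.8% of all did, and the 1 call of St8sia3. The 1 in aged unimpaired samples was the St8sia2 probe set 1449843_at, with a difference of -0.68 ± 0.27 (adjusted p = 0.498).

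**Figure D5:**
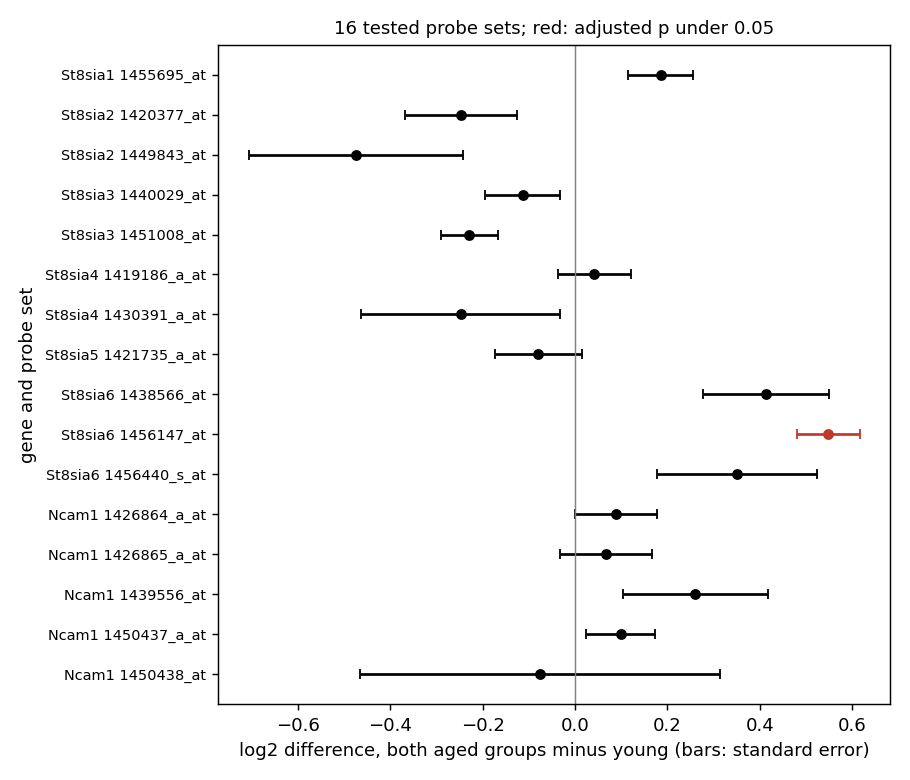
Log2 difference of both aged groups minus young (x axis, bars are standard errors of the fit) for the 16 tested member probe sets (y axis). St8sia6 1456147_at, in red at 0.55, is the only one called, and all 3 St8sia6 probe sets lie to the right of 0.

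Members differed in the company they kept across samples. The genes most like St8sia1 were Grasp (r = 0.902), Ptpn3 (0.852) and Synrg (0.833). Those most like St8sia3 on 1440029_at were Zfp644 (0.898), Lemd3 (0.877) and the histone demethylase Kdm6a (0.864). St8sia5 varied most like Dnm1, the dynamin of synaptic vesicle recycling (0.807), Rnf187 (0.805) and Prkar1b, a regulatory subunit of protein kinase A (0.800). St8sia4 varied most like Larp1 (0.840), Txnrd1 (0.808) and Fam104a (0.798). Ncam1 varied most like Gprasp1 (0.830), Nrcam, an adhesion molecule of the same superfamily (0.827), and Huwe1 (0.824), and St8sia2 most like Gnb4 (0.805), Ogn (0.801) and Ncaph (0.799). With group means taken out these 18 values were 0.745 to 0.902, whereas those of the 5 genes most like St8sia6 were 0.211 to 0.682. Between members, St8sia4 on 1419186_a_at and Ncam1 on 1426864_a_at had r = 0.681 over the 18 samples, and 0.672 with group means taken out. The other bright Ncam1 probe sets did not share this, with r = 0.076 for 1426865_a_at and 0.087 for 1450437_a_at. The dim St8sia4 probe set 1430391_a_at had r = -0.158 with 1426864_a_at, -0.500 with 1426865_a_at and -0.721 with 1450437_a_at.

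The rest of the sialic acid pathway was mostly without calls when both aged groups were set against young, where 1.19% of 13121 genes were called on their probe set of highest mean. Of 8 genes of sialic acid supply and recycling, all tested, 0 were called, with a median difference of -0.06 beside -0.01 over all genes. Nanp, the phosphatase of sialic acid synthesis, had the lowest p (-0.16 ± 0.06, adjusted p = 0.230), before Cmas, which activates sialic acid (-0.07 ± 0.06, adjusted p = 0.675). Of 13 other sialyltransferases tested, from 14 listed, 0 were called, with a median of 0.05. St6galnac3, which builds sialic acid branches on gangliosides and glycoproteins, had a difference of 0.37 ± 0.12 (adjusted p = 0.186) and St3gal2 one of 0.13 ± 0.07 (adjusted p = 0.480). Neu1, the lysosomal sialidase that removes sialic acid, was the 1 sialidase of 4 that was tested, with 0.16 ± 0.06 (adjusted p = 0.273).

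Of 9 genes of ganglioside synthesis and breakdown tested, from 10 listed, 0 were called, with a median difference of 0.03 and the lowest p for B3galt4 (-0.10 ± 0.10) and B4galt6 (0.04 ± 0.05). Of 13 relatives and partners of Ncam1 and other carriers of polysialic acid, 0 were called, with a median of 0.01. Cntn2, an axonal adhesion molecule, had a difference of 0.26 ± 0.11 (adjusted p = 0.314), and Fyn, a kinase that Ncam1 signals through, one of -0.11 ± 0.06 (adjusted p = 0.452).

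Receptors that bind sialic acid included 1 call. Of 5 tested, from 8 listed, Cd33, a receptor of microglia, rose (limma adjusted p = 0.00828). Cd33 ran from 4.97 through 5.87 to 6.22 in young, 6.22 through 6.70 to 7.35 in aged unimpaired and 6.40 through 6.72 to 7.08 in aged impaired samples. All aged samples lay above all young ones, though both sides of the border round to 6.22. The young mean of 5.75 was under the filter level of 5.92 and within the range of Xist, so Cd33 was tested only through its aged samples and no size of the rise is given, the fitted difference running from 0.59 with an offset of 64 to 1.27 with an offset of 1. Mag, the sialic acid receptor of myelin, had a difference of 0.38 ± 0.12 for both aged groups (adjusted p = 0.151) and rose by 0.63 ± 0.14 in aged impaired samples against young (adjusted p = 0.0249). Mag is itself in the oligodendrocyte list, of which 2 of 6 rose in aged impaired samples against young, and the part of microglia and oligodendrocyte RNA in the Cd33 and Mag results was not tested.

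Genes of newborn neurons, the cells that carry most polysialic acid in the adult hippocampus, were lower in aged samples. All 9 tested, from 10 listed, had a lower mean, with a median of -0.17, and 2 fell. Over all 13121 genes, 6827 had a lower mean and 49 fell. Sox11, a transcription factor of newborn neurons, ran from 9.20 through 9.34 to 9.56 in young, 8.64 through 8.93 to 9.07 in aged unimpaired and 8.60 through 8.75 to 8.98 in aged impaired samples, and fell by 0.52 ± 0.08 (adjusted p = 0.00223). Dpysl3, a protein of growing axons, fell by 0.50 ± 0.07 (adjusted p = 0.00230). It ran from 9.76 to 10.21 in young, 9.40 to 9.59 in aged unimpaired and 9.24 to 9.68 in aged impaired samples. Dcx, the usual marker of newborn neurons, had a difference of -0.09 ± 0.11 (adjusted p = 0.757). The newborn neuron mean had r = 0.537 with St8sia2 on 1420377_at and 0.351 on 1449843_at, and 0.324 and 0.011 with group means taken out. A correlation of this size was not particular to St8sia2. With St8sia6 on 1456147_at r was -0.739, with St8sia1 on 1455695_at -0.645 and with St8sia3 on 1440029_at 0.468. With group means taken out these were -0.267, -0.358 and 0.348.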

How the data were processed

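RNA of 18 hippocampus samples had been measured on Affymetrix arrays. Per the submitters' processing notes the authors used MAS5, and the deposited values are linear signal intensities, 1 for each probe set and sample, and their trimmed mean is alike on all arrays. The genome build behind these values is not given in the sources used here. Each array was scaled again to a 2% trimmed mean of 500, 16 was added and log2 was taken. After removal of 64 control probe sets and the dimmest 40% by mean over the samples (filter level 5.92), 27022 of 45101 were tested.

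Symbols came from the platform annotation: 34945 probe sets have 1 symbol, 932 several and 9160 none, and 34741 were matched to RefSeq genes of GRCm38.p6. Group means were fitted to all 18 samples in limma 3.58.1 (R 4.3.3) with empirical Bayes moderation, 2-sided tests and Benjamini-Hochberg adjustment over all probe sets tested. A difference between groups had a standard error of 0.12 at the median. The fit was tested on simulated data. A gene with several probe sets was read on that of highest mean among those tested, except the members, for which each is given.

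Named genes were all members, the 5 genes most like St8sia6 and the 3 most like each other member by Pearson's r, and in each pathway list those called or the pair of lowest p. Dcx was named after its values were seen. The members and lists were chosen with earlier results of these data known. Alternatives tried were offsets of 1 and 64, quantile normalization, no filter or a 60% filter, the sample number as a block, only the groups compared, trended and robust moderation, array weights, a choroid plexus covariate and leaving out each sample.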

Additional observations from a re-analysis of the deposited data

Results flagged for a closer look

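In 5 of 60 groups of 6 samples on member probe sets, 1 sample stood apart by Dixon's test at its 95% critical value, which chance does in about 1 in 20 groups. On St8sia3 1451008_at, aged unimpaired replicate 3 was the highest of its group at 10.05, so it lay on the side away from the aged impaired samples. On St8sia4 1430391_a_at, aged impaired replicate 6 was low at 4.52. On Ncam1 the samples that stood apart were young replicate 3 on 1426865_a_at, high at 11.25, and, on probe sets left out as dim, aged impaired replicate 2 on 1421966_at, high at 5.13, and young replicate 4 on 1425126_at, high at 5.37.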

How the results depend on the processing

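Across the alternatives 820 values for single genes kept their direction and side of the threshold, 8 reversed and 3 lost their call. The St8sia6 difference between aged and young samples ran from 0.46 to 0.58 and stayed called in all 27. Without a filter, with the sample number as a replicate block and with only the groups compared, 0 members were called in aged impaired against young in limma (3 had an unadjusted p under 0.05 in the fit reported), where St8sia3 1451008_at stayed at -0.35. No pairing by sample number was seen with group means taken out. The correlation of same-numbered samples ran from -0.247 to 0.096, and 0 samples were most like one of their own number. The labels do not say what the number stands for, and these correlations cannot tell whether same-numbered samples were handled together. Over all probe sets, called counts were 256 for both aged groups against young, 37 for aged unimpaired, 440 for aged impaired and 3 between the aged groups. They became 131, 13 and 193 for the first 3 without a filter, and 141, 17, 240 and 0 with the block. With only the groups compared, aged unimpaired gave 22, aged impaired 241 and the aged groups 0. Trended and robust moderation gave 58 for aged unimpaired and 9 between the aged groups, array weights gave 57 for aged unimpaired, and a 60% filter gave 6 between the aged groups. Leaving out 1 sample gave 116 to 274, 16 to 37, 228 to 467 and 2 to 4, and the lowest count for both aged groups was without young replicate 6. Of the 5 genes most like St8sia6, 1 remained by Spearman's rho and 0 by deviations from group means. The sign turned for Ncam1 1450438_at with array weights (0.043) and without 1 of 6 samples, its range over samples left out being -0.41 to 0.12, and for St8sia4 1419186_a_at without young replicate 5, where the range was -0.014 to 0.069. The cause of these changes was not tested. Dim probe sets of St8sia2, St8sia4 and Ncam1 lay near the Xist level, where differences are hard to detect.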
